A study of Mus musculus with 16 samples.

Results

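The organic ion transporters of the Slc22a and Slco gene families were examined in RNA sequencing of mouse liver and liver tumours. Members were all gene symbols made of Slc22a and a number, or of Slco, a number, a letter and a number, that reached 10 raw counts in 2 or more libraries. One further Slco gene is not analysed here. The rule left 22 members out of 39 matching symbols and 55291 genes in the count table. The series holds 16 libraries, 2 biological replicates in each of 8 groups, made from whole liver or from isolated tumours. Wild-type (WT) mice and mice that lost Arid1a (Arid1a KO) were given the vehicle DMSO and sampled 9 or 30 days after tamoxifen. Mice that lost both Arid1a and Arid1b (Arid1a/b DKO) were given DMSO and sampled at 9 days. Further WT and Arid1a KO mice received an agonist whose target the labels spell NR1L3, and were sampled at 30 days. The WT agonist livers carry 9 days in their titles and 30 days in their other labels, and were treated as 30-day livers. Tumours carry the genotype label Arid1a KO/BcatEXON without a time or treatment entry, so they were compared with the mean of the 9-day and 30-day vehicle livers of a genotype. Arid1a and Arid1b encode subunits of the BAF chromatin remodelling complex. The labels of the WT libraries begin with ALB_WT, and those of the agonist libraries hold the letters TC. What ALB and TC stand for was not assumed. The sources used here do not give the promoter that drove deletion, nor the sex or age of the mice. The labels name hepatocytes as the cell type although whole tissue was used.

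Both families move organic molecules through the plasma membrane. Slc22a proteins fall into organic cation, carnitine and organic anion transporters, and Slco genes encode the organic anion transporting polypeptides, which carry bile acids, bilirubin, steroid conjugates, thyroid hormones, prostaglandins and many drugs. In liver, several of them sit on the sinusoidal membrane of hepatocytes and take up solutes and drugs from blood before metabolism and biliary excretion.

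The 5 members Slc22a26 to Slc22a30 lie side by side on the minus strand of chromosome 19 (GENCODE M21, GRCm38), in an array of organic anion transporter genes that spans 955.2 kb from Slc22a19 to Slc22a6. Their transcripts are close relatives: the longest protein-coding transcripts of Slc22a27 and Slc22a29 were 95.8% identical over the aligned bases, and those of Slc22a28 and Slc22a30 89.94%. Of all 50-base stretches in the exons of Slc22a28, 53.86% also occurred in another member. That share was 34.03% for Slc22a30, 29.73% for Slc22a27 and 28.65% for Slc22a29. The treatment of reads that fit several genes is not given in the sources used here, so the split of counts among these neighbours is uncertain. The same holds for Slc22a5 (26.22%) and Slc22a21 (22.04%), carnitine transporter genes on chromosome 11.

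The 3 windows below, from RefSeq on GRCm38.p6, are the 250 bases before the start sites of Slc22a28 (chr19:8131983-8132232, minus strand), Slc22a30 (chr19:8405106-8405355, minus strand) and Slc22a29 (chr19:8218901-8219150, minus strand). They are shown because these neighbouring genes, which hold several of the calls below, share upstream sequence. In the first and second, capitals mark bases that differ between Slc22a28 and Slc22a30 or have no partner in their alignment; in the third, capitals mark the same against Slc22a28.
Slc22a28: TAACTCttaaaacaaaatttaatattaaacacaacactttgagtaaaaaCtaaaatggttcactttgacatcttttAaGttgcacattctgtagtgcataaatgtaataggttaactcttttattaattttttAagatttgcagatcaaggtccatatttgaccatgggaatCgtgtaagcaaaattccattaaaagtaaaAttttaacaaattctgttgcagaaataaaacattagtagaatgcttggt
Slc22a30: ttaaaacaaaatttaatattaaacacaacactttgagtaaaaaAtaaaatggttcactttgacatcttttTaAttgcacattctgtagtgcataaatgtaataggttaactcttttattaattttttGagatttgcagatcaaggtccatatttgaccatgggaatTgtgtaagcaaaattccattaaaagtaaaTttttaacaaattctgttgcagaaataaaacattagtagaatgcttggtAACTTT
Slc22a29: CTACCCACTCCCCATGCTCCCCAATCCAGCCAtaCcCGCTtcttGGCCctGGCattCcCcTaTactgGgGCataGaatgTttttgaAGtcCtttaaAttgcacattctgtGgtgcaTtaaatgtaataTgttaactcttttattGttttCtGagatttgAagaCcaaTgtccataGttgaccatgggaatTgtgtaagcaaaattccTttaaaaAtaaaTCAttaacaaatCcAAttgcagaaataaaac
The windows of Slc22a28 and Slc22a30 were 97.54% identical over 244 aligned bases, and those of Slc22a28 and Slc22a29 81.69% over 213. A search of both strands of the 250-base windows of 18 members with a RefSeq window found a short form of the motif of hepatocyte nuclear factor HNF1 in 1 member, at positions -33 to -24 of Slc22a29 in reverse orientation. That pattern occurred in 0.371% of 32851 windows of the same length. The STAT pattern TTCNNNGAA occurred in 4 members (Slc22a15, Slc22a26, Slco1b2 and Slco2b1) and in 7.02% of all windows. The full HNF1 form and the patterns HNF4, DR4 (a direct repeat) and ERE (an estrogen response element) matched none of the 18 members. Some members have several windows, so counts of members and shares of windows are on different scales. A match describes letters and is not evidence of binding.

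Libraries held 7569779 to 47768610 counts, and 3 counts corresponded to 0.0481 to 0.363 CPM (counts-per-million units). All levels below are CPM after TMM scaling, with replicate 1 given before replicate 2. Whole-gene counts of Arid1a were 72.2 and 77.0 CPM in WT and 87.5 and 90.1 in Arid1a KO livers at 9 days; they do not isolate a deleted part and check nothing. Arid1b was at 24.5 and 25.7 CPM in DKO livers against 38.0 and 52.8 in WT livers. The tumours stood apart in sex chromosome genes: Xist was at 354 and 53.8 CPM in tumours and at most 0.767 in the 14 livers, and the Y-linked Ddx3y at 0.567 and 34.8 CPM in tumours and 55.3 to 98.6 in the livers. Cyp2b10, a target of the nuclear receptors CAR and PXR, was at 1835 to 2130 CPM in the 4 agonist livers. It was also at 354 and 324 CPM in replicate 1 of the 30-day WT and Arid1a KO vehicle livers, but at 0.499 and 8.94 CPM in replicate 2, so agonist comparisons rest on vehicle livers that differ in this gene. Markers fixed for hepatocytes summed to 10346 to 34866 CPM in every library.

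Compared per kilobase of exon, Slco1b2 stood at 264 ± 58.2 CPM per kb in WT liver at 9 days (SD, n = 2). It encodes the hepatocyte uptake transporter for bilirubin, bile acids and statins. Below it came Slc22a18 (69.0 ± 0.629), Slc22a30 (56.8 ± 8.22) and Slco2b1 (37.2 ± 6.22 CPM per kb), and the spreads of these 4 did not overlap. At the other end Slco1a6 had 0 to 4 counts in each of the 14 livers. In DKO livers Slco1b2 was at 5.77 ± 6.17 CPM per kb, below Slc22a18 at 115 ± 8.82.

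**Figure D1:**
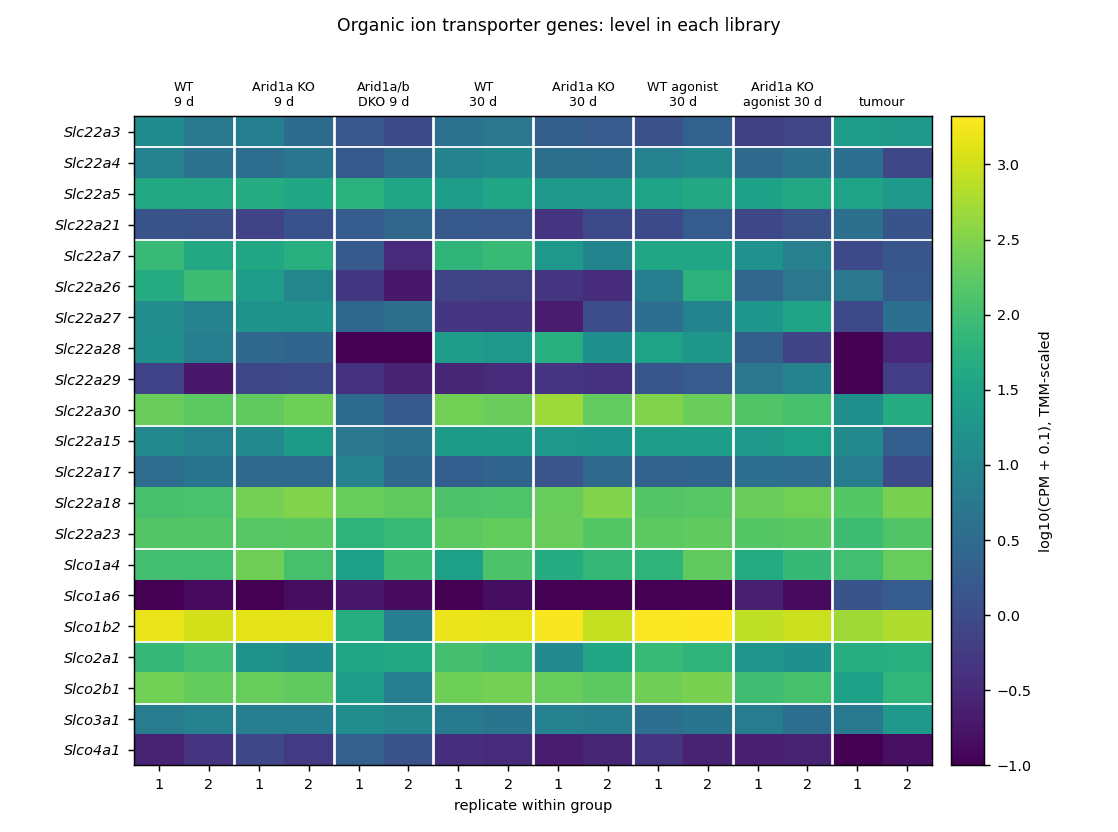
Level of 21 members in each of the 16 libraries, as log10 of CPM plus 0.1 (colour); columns are replicates 1 and 2 within each group, white lines separate groups and gene classes. The DKO columns are lower than the other 9-day columns for Slco1b2, Slco2b1, Slc22a7 and Slc22a28, and Slco1a6 is above its near-zero level in the tumours alone.

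In Arid1a/b DKO livers, the main hepatic uptake transporters of both families were among the genes that fell. Of 21 members tested against WT at 9 days, 12 fell and 2 rose (edgeR quasi-likelihood test, adjusted p under 0.05), while 26.4% of the 17831 genes tested were called, 13.8% lower and 12.6% higher. The median log2 fold change of the members was -1.22, against 0.01 for all genes. The organic anion transporters Slc22a7, Slc22a26, Slc22a28 and Slc22a30 and the polypeptides Slco1b2 and Slco2b1 were among those that fell, by log2 values from -3.88 for Slco2b1 to -8.21 for Slc22a26 where DKO livers had counts. Against Arid1a KO livers at 9 days, 11 members fell and 1 rose, with 22% of all genes called (9.92% higher, 12.1% lower), and those 11 were all among the 12 that were lower than in WT. Both comparisons use the same DKO libraries. In tissue RNA, fewer cells of a type and less RNA per cell cannot be told apart.

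Slc22a3, an organic cation transporter that carries monoamines, was at 11.8 and 5.22 CPM in WT, 7.26 and 3.21 in Arid1a KO and 1.41 and 0.85 in DKO livers. It was lower in both DKO livers than in all 4 others (log2 -2.9, SE 0.54, edgeR adjusted p = 0.00356; -2.22 without WT replicate 1). Exons of Slc22a3 overlap those of Plg on the opposite strand over 9.31% of their length, and the strand setting of the counting is not given in the sources used here. Plg itself was at 2119 to 3025 CPM in WT and Arid1a KO livers at 9 days and at 1083 and 1279 in DKO, and the part of its reads in the Slc22a3 counts was not tested.

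Of the carnitine transporter class, Slc22a4 alone was called. Slc22a5, the high-affinity carnitine transporter of most tissues, was at 41.3 and 41.1 CPM in WT and 58.4 and 34.9 in DKO livers, with overlapping values (log2 0.18, SE 0.27, edgeR adjusted p = 0.648). Slc22a21 was at 1.21 and 1.08 CPM in WT and 1.67 and 2.58 in DKO livers, without overlap and without a call (log2 0.91, SE 0.48, edgeR adjusted p = 0.182). Slc22a4, which transports ergothioneine, was at 7.72 and 4.27 CPM in WT, 3.48 and 4.89 in Arid1a KO and 1.60 and 3.06 in DKO livers. Both DKO values were below both WT values (log2 -1.34, SE 0.41, edgeR adjusted p = 0.0346). Against Arid1a KO livers no difference was called (log2 -0.84, edgeR adjusted p = 0.163).

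Of 6 organic anion transporters 5 fell. Slc22a7, a transporter of organic anions known from liver and kidney, was at 81.1 and 40.3 CPM in WT, 37.2 and 50.8 in Arid1a KO and 1.60 and 0.224 in DKO livers. No DKO value came near the others, and the level was 68.7-fold lower than in WT (log2 -6.10, SE 0.81, edgeR adjusted p = 0.000553). The log2 value was -8.03 without DKO replicate 1 and -5.26 without DKO replicate 2. Slc22a30 was at 211 and 172 CPM in WT, 183 and 234 in Arid1a KO and 3.28 and 1.54 in DKO livers, 79.7-fold lower in DKO than in WT (log2 -6.32, SE 0.53, edgeR adjusted p = 4.81e-05; -6.94 without DKO replicate 1). Its neighbour Slc22a28 had 392 counts in the WT livers (13.8 and 7 CPM) and 97 in Arid1a KO (2.81 and 2.37 CPM), and none in either DKO liver. It was at least 311-fold lower in DKO than in WT and at least 87.7-fold lower than in Arid1a KO, taking 3 counts over the DKO group as the floor (edgeR adjusted p = 0.000296 and 0.00123).

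Slc22a26 was at 46.5 and 95.6 CPM in WT, 23.9 and 9.35 in Arid1a KO and 0.406 and 0.0962 in DKO livers. The 3 genotypes did not overlap in this gene; it was 296-fold lower in DKO than in WT (log2 -8.21, SE 1.13, edgeR adjusted p = 0.000677), while the Arid1a KO difference was not called (log2 -2.11, edgeR adjusted p = 0.372). Against WT the log2 value was -9.44 without DKO replicate 1, -7.46 without DKO replicate 2 and -7.58 without WT replicate 2. Slc22a27 was at 12.9 and 8.09 CPM in WT, 16.2 and 16.1 in Arid1a KO and 2.73 and 3.80 in DKO livers (log2 -1.67 against WT, SE 0.53, edgeR adjusted p = 0.0400). Its near-copy Slc22a29 was below 1 CPM in all 6 livers at 9 days and was not called (log2 -0.40, SE 0.73). Of the 5 array genes, 4 thus fell in DKO livers.

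The remaining Slc22a genes moved less. Slc22a23, a family member without an assigned substrate, was at 146 CPM in both WT livers, 159 and 162 in Arid1a KO and 64.4 and 83.8 in DKO livers (log2 -0.98, SE 0.20, edgeR adjusted p = 0.00521). Slc22a15 was at 10.9 and 7.93 CPM in WT, 11.6 and 22.7 in Arid1a KO and 5.14 and 4.20 in DKO livers (log2 -1, SE 0.30, edgeR adjusted p = 0.0340). In both genes the DKO values lay below all others. Slc22a18, an imprinted gene of the family, went the other way, at 116 and 118 CPM in WT and 206 and 185 in DKO livers (log2 0.74, SE 0.21, edgeR adjusted p = 0.0244). Slc22a17, a receptor for lipocalin-2, was at 3.46 and 4.65 CPM in WT and 7.94 and 2.69 in DKO livers, with overlapping values.

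Of the polypeptides, Slco1b2 was at 1502 and 1096 CPM in WT, 1375 and 1381 in Arid1a KO and 49.9 and 6.96 in DKO livers. It was 45.5-fold lower in DKO than in WT (log2 -5.51, SE 0.78, edgeR adjusted p = 0.000834), with -7.53 without DKO replicate 1 and -4.73 without DKO replicate 2. Slco2b1, a carrier of steroid sulfates, was at 248 and 196 CPM in WT, 208 and 187 in Arid1a KO and 23 and 7.05 in DKO livers (log2 -3.88, SE 0.45, edgeR adjusted p = 0.000264), with -4.96 and -3.29 without the same libraries. For both genes the DKO livers lay far below the other 4, replicate 2 lower than replicate 1. Slco4a1, a thyroid hormone transporter, was scarce throughout, at 0.161 and 0.350 CPM in WT, 0.741 and 0.441 in Arid1a KO and 1.98 and 1.15 in DKO livers, where it rose (log2 2.48, SE 0.56, edgeR adjusted p = 0.00975; 3.24 without WT replicate 2). Slco1a4, a carrier of digoxin and bile acids, was at 108 and 102 CPM in WT and 29.6 and 94.9 in DKO livers, without overlap and without a call (log2 -0.74, SE 0.73, edgeR adjusted p = 0.484). Slco3a1, a prostaglandin carrier, was at 6.35 and 8.18 CPM in WT and 12.9 and 9.72 in DKO livers without a call (log2 0.63, SE 0.33, edgeR adjusted p = 0.174).

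**Figure D2:**
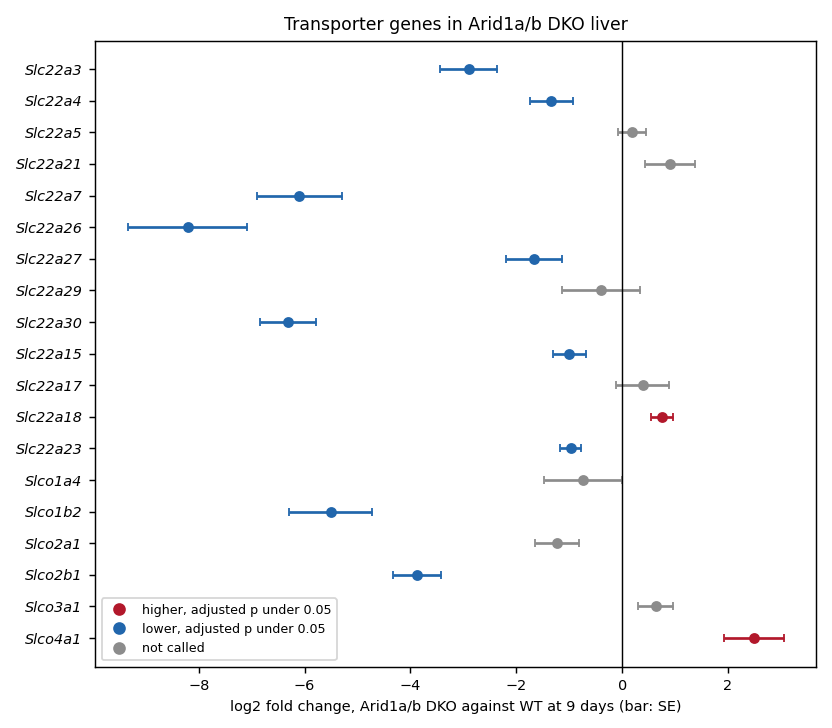
Log2 fold change of 19 tested members in Arid1a/b DKO against WT liver at 9 days with its SE (bars), coloured by the edgeR call at an adjusted p under 0.05. Slc22a28 is left off because both DKO livers had 0 counts; 10 of the members drawn lie on the lower side with a call, down to -8.21 for Slc22a26, and Slco4a1 and Slc22a18 on the higher side.

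The calls for Slc22a18 and Slc22a27 were lost without any 1 of the 4 libraries (edgeR adjusted p up to 0.138 and 0.211), those for Slco4a1 and Slc22a4 without WT replicate 1 or DKO replicate 1 (up to 0.0813 and 0.256), and that for Slc22a15 without either DKO library or WT replicate 1 (up to 0.204). The other 9 calls held without each library. Against Arid1a KO livers, the call for Slc22a3 was lost without Arid1a KO replicate 1 or DKO replicate 2 (edgeR adjusted p up to 0.127), and that for Slc22a27 without either Arid1a KO library or DKO replicate 1 (up to 0.0840). Without WT replicate 1 or DKO replicate 1, 9 members in all were called. The tissue of the DKO livers also differed in other cell types. Of 6 stellate cell and fibroblast markers 4 rose, and of 6 cholangiocyte markers 2, beside 12.6% of all genes called higher. Of 7 hepatocyte markers 4 fell (median log2 -1.30), beside 13.8% of all genes called lower. The summed stellate markers were at 1485 and 757 CPM in DKO and 112 and 161 in WT livers, and summed hepatocyte markers at 12858 and 11813 in DKO and 34866 and 14786 in WT livers; their part in the transporter results was not tested.

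Other hepatobiliary transporters, a list of bile acid, nucleoside and drug carriers outside both families, were counted in the same comparison. Of 22 tested in DKO against WT livers, 11 fell and 2 rose, beside 26.4% of all genes called; their median log2 fold change was -1.24, beside -1.22 for the members. Among them were Slc47a1, the proton exchanger that extrudes organic cations into bile (log2 -3.34, SE 0.43, edgeR adjusted p = 0.000451), and Slc10a1, the sodium-dependent bile acid uptake transporter (log2 -1.51, SE 0.39, edgeR adjusted p = 0.0177). Of 24 genes for receptors and factors that are known to act on transporter genes, 10 fell and none rose. Nr1h4, the bile acid receptor FXR, fell (log2 -3.27, edgeR adjusted p = 0.000112), as did Ghr, the growth hormone receptor (log2 -2.73, edgeR adjusted p = 0.000109). Hnf4a was among the hepatocyte markers and regulators that were not called, at 1058 and 998 CPM in WT and 769 and 749 in DKO livers.

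Loss of Arid1a alone changed 2 members in vehicle livers at 9 days, with 0.566% of all genes called (0.269% higher, 0.297% lower). Slco2a1, the prostaglandin transporter that clears prostaglandins from blood, fell, and Slc22a18 rose. Slco2a1 was at 76.3 and 106 CPM in WT and 16.4 and 12.3 in Arid1a KO livers, and at 34.7 and 42.9 in DKO livers. The 3 genotypes did not overlap, and the DKO livers lay between the others. The level was 6.36-fold lower in Arid1a KO than in WT (log2 -2.67, SE 0.44, edgeR adjusted p = 0.0265) and rose from Arid1a KO to DKO (log2 1.44, SE 0.42, edgeR adjusted p = 0.0330), while DKO against WT narrowly missed the threshold (log2 -1.22, SE 0.41, edgeR adjusted p = 0.05005). Slc22a18 was at 116 and 118 CPM in WT and 261 and 312 in Arid1a KO livers, with no overlap (log2 1.29, SE 0.21, edgeR adjusted p = 0.0265). All of these calls in the Arid1a KO comparison, and the rise of Slco2a1 from Arid1a KO to DKO, were lost when any 1 of the 4 libraries was left out, with edgeR adjusted p up to 0.278 for Slco2a1 and 0.230 for Slc22a18 against WT, and 0.189 for Slco2a1 against Arid1a KO.

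At 30 days no member was called in vehicle livers (edgeR; 6 at an unadjusted p under 0.05; 3 called by DESeq2), with 0.516% of all genes called (2.23% by DESeq2). The same 2 genes kept their direction. Slco2a1 was at 109.8 and 90.3 CPM in WT and 11.4 and 37.2 in Arid1a KO livers (log2 -2.02, SE 0.43, edgeR adjusted p = 0.0844), and Slc22a18 at 129 and 137 against 203 and 311 CPM (log2 0.95, SE 0.21, edgeR adjusted p = 0.0979). Neither overlapped between genotypes. Slc22a7 was at 67.3 and 81.6 CPM in WT and 19.8 and 8.72 in Arid1a KO livers, also apart but without a call (log2 -2.41, SE 0.67, edgeR adjusted p = 0.194), and Slc22a4 at 8.54 and 11.0 against 3.77 and 3.72 CPM (log2 -1.39, SE 0.42, edgeR adjusted p = 0.237). One member was called without Arid1a KO replicate 1, and 1 without replicate 2. The genotype effect did not differ by a called amount between 30 and 9 days in any member (edgeR interaction; 2 at an unadjusted p under 0.05; 0 by DESeq2; 0% of all genes called, 0.00561% by DESeq2).

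Under the agonist, Arid1a KO livers had less Slco2a1 and less Slc22a28 than WT livers, the 2 members called, with 4.95% of all genes called (3.05% higher, 1.91% lower). Slco2a1 was at 80.4 and 65.3 CPM in WT and 18.1 and 14.6 in Arid1a KO livers (log2 -2.15, SE 0.43, edgeR adjusted p = 0.0199). Over times and treatments, all 6 Arid1a KO livers (11.4 to 37.2 CPM) lay below all 6 WT livers (65.3 to 109.8 CPM) in Slco2a1. In Slc22a18 all 6 Arid1a KO livers lay above all 6 WT livers. The share of all genes separated in this way was not counted. The call for Slco2a1 under the agonist was lost without any 1 of its 4 libraries. Slc22a7, Slc22a4 and Slco2b1 were among further members that were lower in both Arid1a KO livers, at 34.6 and 35.9 against 15.4 and 7.45 CPM for Slc22a7, 7.98 and 11.6 against 3.02 and 4.30 for Slc22a4, and 239 and 277 against 97.9 and 117 for Slco2b1, without calls (edgeR adjusted p = 0.182, 0.0747 and 0.1). Slc22a18, Slc22a27 and Slc22a29 were higher in both Arid1a KO livers, also without calls, at 145 and 159 against 213 and 248 CPM for Slc22a18, 3.75 and 8.76 against 18.3 and 33.3 for Slc22a27 (edgeR adjusted p = 0.0559), and 1.33 and 1.64 against 4.99 and 8.57 for Slc22a29 (edgeR adjusted p = 0.0621). In all, 11 members had an unadjusted p under 0.05, and 5 of 21 had a positive log2 fold change.

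Markers of liver sinusoidal endothelium are given beside Slco2a1, since that gene is known from endothelium. Of 6 such markers none was called in Arid1a KO at 9 days (edgeR, median log2 -0.44), beside 0.566% of all genes called. Their summed level was 168 and 316 CPM in WT, 174 and 146 in Arid1a KO and 450.0 and 440.2 in DKO livers. Under the agonist it was 225 and 267 CPM in WT and 274 and 97.2 in Arid1a KO livers. At 30 days with vehicle it was 306.5 and 229 CPM in WT and 228.5 and 141 in Arid1a KO livers. None of the 6 was called there (median log2 -0.51), beside 0.516% of all genes called. The sums of WT and Arid1a KO livers overlapped at 9 days and under the agonist, and the DKO sums lay above both. At 30 days the sums nearly met, at 228.96 CPM in the lower WT and 228.52 in the higher Arid1a KO liver. At both times and under the agonist, Stab2, Kdr, Clec4g, Oit3 and Pecam1 had negative log2 values in Arid1a KO against WT livers. Lyve1 had positive ones. At 9 days the log2 value was -0.88 for Stab2 and 0.55 for Lyve1. The part of endothelium in the Slco2a1 result was not tested. In DKO against WT livers 12.6% of all genes were called higher. Of the 6 endothelial markers 2 rose there, among them Lyve1 (log2 3.76, SE 0.80, edgeR adjusted p = 0.00717).

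**Figure D3:**
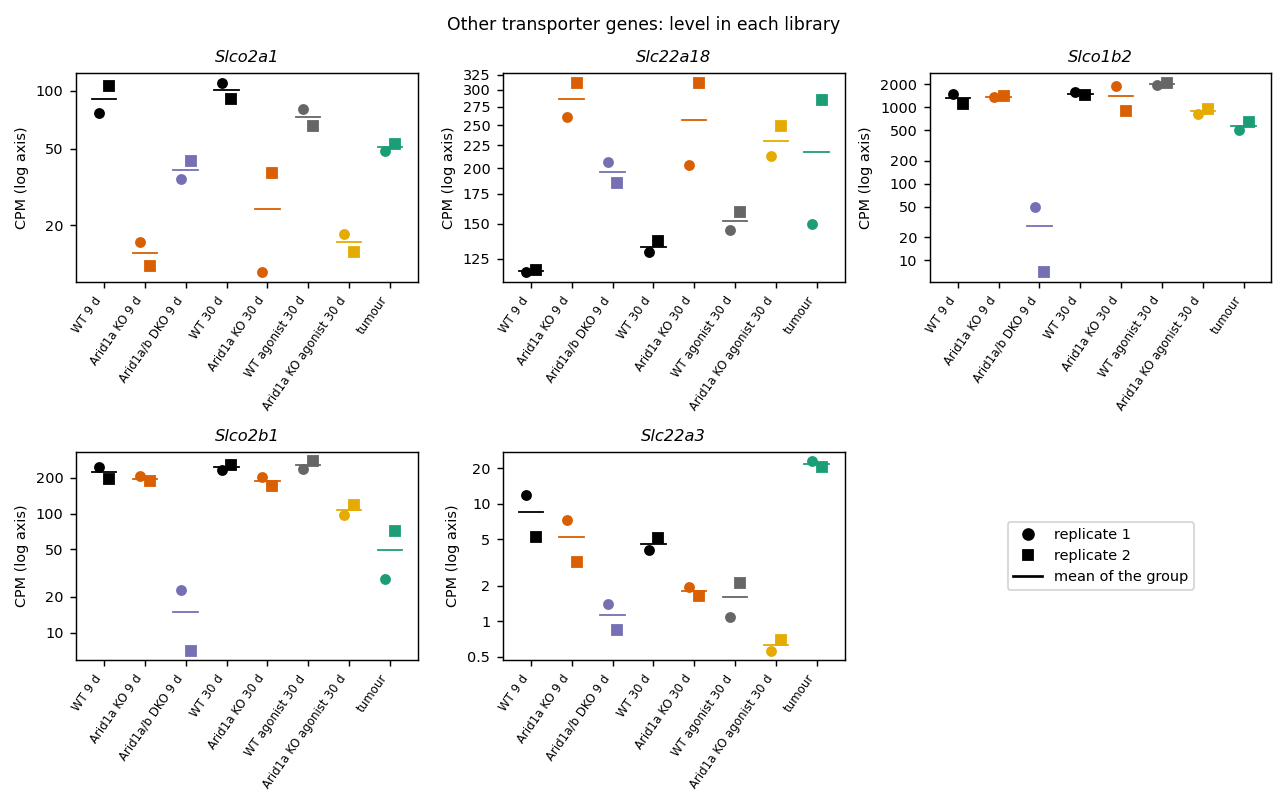
CPM on a log axis of 5 members in each library (circles replicate 1, squares replicate 2, bars group means). Slco2a1 is lower in all 6 Arid1a KO livers (11.4 to 37.2 CPM) than in all 6 WT livers (65.3 to 109.8), Slco1b2 and Slco2b1 are lowest in the DKO livers, and Slc22a3 is highest in the tumours (23 and 20.6 CPM).

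The agonist raised 2 array genes and lowered 1 in Arid1a KO livers. Of 21 members tested, Slc22a27 and Slc22a29 rose and Slc22a28 fell, with 0.869% of all genes called (0.55% higher, 0.32% lower). Slc22a27 was at 0.114 and 0.948 CPM with vehicle and 18.3 and 33.3 with the agonist, 39.6-fold higher (log2 5.31, SE 0.65, edgeR adjusted p = 0.00739). Its log2 value was 7.82 without vehicle replicate 2 and 4.74 without vehicle replicate 1. Slc22a29 was at 0.343 and 0.328 CPM with vehicle and 4.99 and 8.57 with the agonist (log2 4.33, SE 0.70, edgeR adjusted p = 0.0191). Slc22a28, whose transcript is 89.77% identical to that of Slc22a29, was at 50.6 and 14.4 CPM with vehicle and 1.90 and 0.662 with the agonist (log2 -4.74, SE 0.71, edgeR adjusted p = 0.0182). Its log2 value was -3.59 and -5.33 without vehicle replicate 1 and 2, and -5.59 and -4.08 without agonist replicate 1 and 2. Vehicle and agonist livers did not overlap in any of these 3 genes. Slc22a30, which shares its upstream sequence with Slc22a28, was at 485 and 192 CPM with vehicle and 138 and 114 with the agonist, and was not called (log2 -1.42, SE 0.43, edgeR adjusted p = 0.177).

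The call for Slc22a27 held without each library. The call for Slc22a29 was lost without any 1 of the 4 libraries (edgeR adjusted p up to 0.116), and that for Slc22a28 without either agonist library or vehicle replicate 1 (up to 0.102), so that 1 member was called without any 1 of these 3 libraries. In WT livers no member was called with the agonist (edgeR; 4 at an unadjusted p under 0.05; 2 called by DESeq2), with 0.028% of all genes called (0.623% by DESeq2). Slc22a26 nevertheless went from 0.671 and 0.590 CPM with vehicle to 6.89 and 58.5 with the agonist (log2 5.72, SE 1.06, edgeR adjusted p = 0.118), and Slc22a27 from 0.384 and 0.363 to 3.75 and 8.76 CPM (log2 4.09, SE 0.68, edgeR adjusted p = 0.101). Slc22a29 went from 0.192 and 0.227 to 1.33 and 1.64 CPM (log2 2.78, SE 0.74, edgeR adjusted p = 0.463). Values with vehicle and agonist did not overlap in these 3 genes either. These WT agonist livers carry 9 days in their titles. Against the 9-day WT vehicle livers, values overlapped in Slc22a26 and Slc22a27 and were higher with the agonist in Slc22a29. Per kb of exon, Slc22a26 was at 2.34 and 19.8 CPM with the agonist and 15.8 and 32.4 in those 9-day livers. For Slc22a27 the values were 1.74 and 4.07 against 5.98 and 3.76. The rises of Slc22a26 and Slc22a27 thus depend on the 30-day label. The share of all genes without overlap was not counted, so non-overlap adds no support here. One member was called without WT agonist replicate 1.

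For Slc22a28 the vehicle and agonist values overlapped in WT and not in Arid1a KO livers, but the difference between genotypes was not called. In WT livers it was at 24.6 and 19.9 CPM with vehicle and 30.8 and 19.6 with the agonist, so that Arid1a KO livers were 20.8-fold below WT livers under the agonist (log2 -4.38, SE 0.71, edgeR adjusted p = 0.0104, lost without Arid1a KO agonist replicate 2 at 0.0561). That log2 value was -5.23 without Arid1a KO agonist replicate 1 and -3.72 without replicate 2. Arid1a KO minus WT, the agonist effect had a log2 value of -4.91 (SE 0.91, edgeR adjusted p = 0.216). No member was called in that interaction (edgeR; 2 at an unadjusted p under 0.05; 1 called by DESeq2), with 0.00561% of all genes called (0.712% by DESeq2).

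Slc22a26 and Slc22a27 also lay apart between 9 and 30 days, without a call. Slc22a26 was at 46.5 and 95.6 CPM in WT vehicle livers at 9 days and 0.671 and 0.590 at 30 days (log2 -6.83, SE 1.10, edgeR adjusted p = 0.0873), and Slc22a27 at 12.9 and 8.09 against 0.384 and 0.363 CPM (log2 -4.79, SE 0.69, edgeR adjusted p = 0.0832). The 2 times lay far apart in both genes, yet no member was called (edgeR; 3 at an unadjusted p under 0.05; 3 called by DESeq2), with 0.0224% of all genes called (1.41% by DESeq2). Arid1a KO vehicle livers had Slc22a26 at 0.343 and 0.255 CPM at 30 days, against 23.9 and 9.35 at 9 days. The agonist comparisons use the same 30-day vehicle livers, which had the lowest Slc22a26 and Slc22a27 of the WT and Arid1a KO livers.

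Genes with sex-dependent levels in mouse liver are given beside these array genes. Of 9 female-biased genes, 1 fell from 9 to 30 days in WT vehicle livers, none was called with the agonist in WT and 1 rose with it in Arid1a KO livers (edgeR). Of 9 male-biased genes none was called in the first or second of these comparisons, and 2 fell with the agonist in Arid1a KO livers. Of all genes, 0.0224% were called from 9 to 30 days, 0.028% with the agonist in WT and 0.869% with it in Arid1a KO livers. In DKO against WT livers 3 female-biased and 5 male-biased genes fell, beside 13.8% of all genes called lower. Summed over 9 female-biased genes, WT livers were at 309.6 and 548 CPM at 9 days, 8.34 and 35.9 at 30 days with vehicle and 40.7 and 214 with the agonist. Arid1a KO livers were at 309.5 and 193 CPM at 9 days, 12 and 27.6 at 30 days with vehicle and 394 and 590.3 with the agonist. These sums were low in the 30-day vehicle livers, as were Slc22a26 and Slc22a27. In the Arid1a KO agonist livers the sums and Slc22a27 were high, but Slc22a26 was below every 9-day WT and Arid1a KO liver. Per kb of exon, Slc22a26 was there at 0.881 and 1.69 CPM, against 15.8 and 32.4 in WT livers at 9 days. Summed over 9 male-biased genes, Arid1a KO livers were at 8440.2 and 5867 CPM with vehicle and 2010.4 and 3016 with the agonist at 30 days, and WT livers at 5985 and 4030.0 with vehicle and 8127 and 4577 with the agonist. At 9 days the male-biased sums were 2373 and 1339.9 CPM in WT, 2005 and 2576 in Arid1a KO and 625 and 899 in DKO livers, and the DKO female-biased sums 158 and 77.6 CPM. Slc22a28 was likewise lower in the agonist-treated than in the vehicle Arid1a KO livers, and lower at 9 than at 30 days in Arid1a KO livers. At 9 days Slc22a28 was also lower in Arid1a KO than in WT livers, while the male-biased sums of these genotypes overlapped. Xist stayed at or below 0.767 CPM in all these livers, and the part of the sex-biased programme in the transporter results was not tested.

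**Figure D4:**
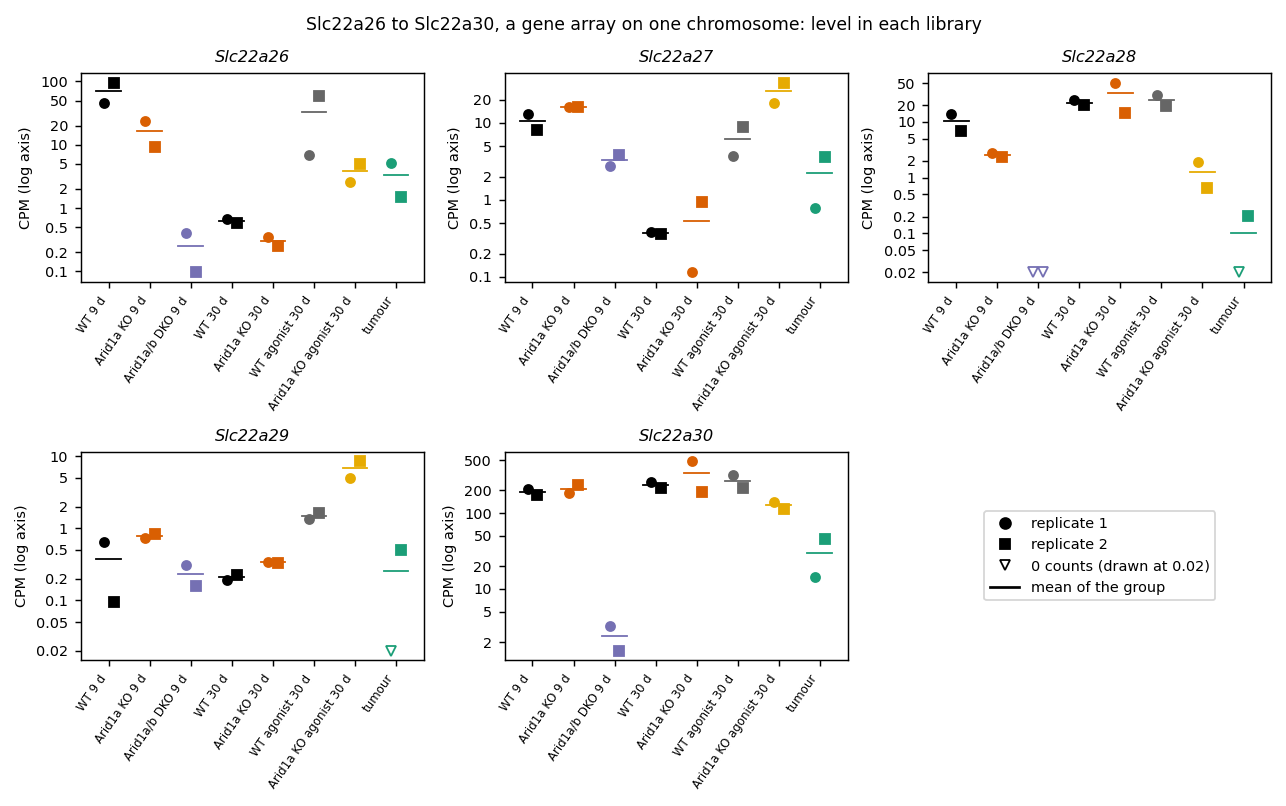
CPM on a log axis of Slc22a26, Slc22a27, Slc22a28, Slc22a29 and Slc22a30 in each library (circles replicate 1, squares replicate 2, bars group means, open triangles 0 counts drawn at 0.02). Slc22a26 and Slc22a27 are below 1 CPM in all 4 vehicle livers at 30 days, Slc22a29 is highest in the Arid1a KO agonist livers (4.99 and 8.57 CPM), and Slc22a28 has 0 counts in both DKO livers and 1 tumour.

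In the tumours, 3 of 6 organic anion transporters (Slc22a7, Slc22a28 and Slc22a30) fell, and the monoamine transporter Slc22a3 and the polypeptide Slco1a6 rose. Against WT vehicle livers 4 of 22 members rose and 6 fell, with 36.6% of 18193 genes called, 20.5% higher and 16.1% lower. Against Arid1a KO vehicle livers 4 rose and 6 fell as well, with 33.1% of all genes called (18% higher, 15.2% lower). Of these, 5 were lower and 2 higher in both comparisons, which share the tumour libraries. The medians of the members were -0.48 and -0.39, against 0.02 and -0.00 for all genes.

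Slc22a3 was at 23 and 20.6 CPM in the tumours, 5.22 to 11.8 across the WT livers at 9 days and 4.03 and 5.13 at 30 days. The lower tumour exceeded every liver library of the series (log2 1.81 against WT, SE 0.39, edgeR adjusted p = 0.00413, and 2.84 against Arid1a KO, SE 0.40, edgeR adjusted p = 0.000337). Plg, whose exons overlap it, was at 891 and 1159 CPM in tumours, below every WT and Arid1a KO liver.

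Slc22a7 was at 0.794 and 1.31 CPM in tumours, 60.3-fold lower than in WT livers (log2 -5.91, SE 0.79, edgeR adjusted p = 0.000195). Slc22a28 had 0 and 4 counts in the tumours (0 and 0.202 CPM), 108-fold lower than in WT livers by the fit (log2 -6.76, SE 0.92, edgeR adjusted p = 0.000291). The log2 value was -6.19 without tumour replicate 1; without tumour replicate 2 no counts were left in the tumours, and the fitted -11.43 depends on the prior count. Slc22a30 was at 14.2 and 45.5 CPM, 7.02-fold lower (log2 -2.81, SE 0.52, edgeR adjusted p = 0.00159), with -2.21 without tumour replicate 1 and -3.95 without replicate 2. All 3 were below every WT and Arid1a KO liver, with and without the agonist, and also fell against Arid1a KO livers (log2 -4.48, -6.03 and -3.14). Slc22a26, at 5.1 and 1.52 CPM, lay between the 9-day and the 30-day vehicle livers of WT and Arid1a KO, and Slc22a27, at 0.794 and 3.64 CPM, overlapped the latter. Neither was called. Slc22a29 was at 0 and 0.505 CPM, 0 of 7569779 counts in the first tumour allowing up to 0.34 CPM.

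Slco2b1 was at 28.2 and 70.8 CPM in tumours against 196 to 258 in WT vehicle livers (log2 -2.23, SE 0.45, edgeR adjusted p = 0.0027), with -3.1 without tumour replicate 2. Slco1b2, at 502 and 647 CPM, was below all 12 WT and Arid1a KO livers without a call (log2 -1.28, SE 0.57, edgeR adjusted p = 0.0986). Slco1a6, a gene of the Slco1 array on chromosome 6, had 11 and 34 counts in the tumours (1.25 and 1.72 CPM) and 2 counts in the 4 WT vehicle livers together. The ratio of pooled levels was 60.0, with a 95% counting interval of 15.7 to 511 (edgeR adjusted p = 0.000959), and against 1 count in Arid1a KO livers 117, with an interval of 20.02 to 4737 (edgeR adjusted p = 0.000804). Slco2a1, at 48.4 and 53.0 CPM, lay above all Arid1a KO livers (log2 1.43, SE 0.33, edgeR adjusted p = 0.00683) and below all WT livers without a call (log2 -0.91, edgeR adjusted p = 0.0636). With the 30-day livers alone as control, the call against Arid1a KO was lost.

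Other tumour calls rested on single libraries. Slco3a1 was at 5.56 and 21.9 CPM in tumours, and its rise against WT livers (log2 1.17, SE 0.42, edgeR adjusted p = 0.0471) became -0.21 without tumour replicate 2. Slc22a18 was at 149.6 and 284 CPM, and its rise against WT (log2 0.80, SE 0.24, edgeR adjusted p = 0.0205) became 0.21 without the same tumour (edgeR adjusted p = 0.535). Slc22a4, at 3.74 and 0.758 CPM, and Slc22a15, at 10.8 and 1.82 CPM, fell against WT (log2 -1.84, edgeR adjusted p = 0.0240) and against Arid1a KO livers (log2 -1.60, edgeR adjusted p = 0.0366) respectively, and both calls were lost without tumour replicate 2 (edgeR adjusted p = 0.125 and 0.108). Slc22a21, at 3.86 and 1.21 CPM, rose against Arid1a KO livers (log2 1.71, edgeR adjusted p = 0.0237) and went to 0.68 without tumour replicate 1. Slco4a1 had 1 count in the tumours and 21 in WT livers, a ratio of 7.87 with a counting interval of 1.27 to 326 (edgeR adjusted p = 0.0355), and 27 in Arid1a KO livers, a ratio of 10.35 with an interval of 1.71 to 424 (edgeR adjusted p = 0.0284). Its calls were lost without either tumour. Leaving out single vehicle livers also ended calls: those for Slco3a1 and Slc22a18 without any 1 of the 4 WT livers, for Slc22a4 without WT 9-day replicate 1 or 30-day replicate 2, and for Slco4a1 against WT without WT 9-day replicate 2 or either 30-day liver. Against Arid1a KO, Slc22a15 lost its call without 9-day replicate 2 or either 30-day liver, Slc22a21 without replicate 1 of either time, and Slco4a1 without 9-day replicate 1 or 30-day replicate 2. Without WT 30-day replicate 2, 6 members were called against WT.

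Without tumour replicate 1, which had the highest Xist and almost no Ddx3y, 10 members were called against WT and 9 against Arid1a KO livers; without tumour replicate 2 these were 8 and 10. The calls for Slc22a3, Slc22a7, Slc22a28, Slc22a30 and Slco1a6 held without either tumour in both comparisons, and that for Slco2b1 against Arid1a KO was lost without tumour replicate 1 (edgeR adjusted p = 0.0538). Both tumours had more Xist and less Ddx3y than every liver. Differences of tumour and of sex chromosome expression therefore cannot be told apart in these comparisons. Summed over the same 9 genes, female-biased genes were at 223 and 619 CPM and male-biased genes at 359 and 421 CPM in the tumours. Markers of macrophages (4 of 6), sinusoidal endothelium (4 of 6) and lymphocytes (3 of 6) fell against WT livers. Markers of cholangiocytes (2 of 6), erythroid cells (2 of 3), neutrophils (2 of 4) and macrophages (1 of 6) rose. So did markers of sinusoidal endothelium (1 of 6) and stellate cells (1 of 6). Of all genes, 20.5% were called higher and 16.1% lower. Among hepatocyte markers Serpina1a alone was called, and fell (log2 -2.35, edgeR adjusted p = 0.000691). The part of these cells in the transporter results was not tested. Markers of kidney tubule, where several members are known to be abundant, summed to 6.13 and 1.06 CPM in tumours and at most 1.65 in livers. Slc12a3, the only kidney tubule marker tested, rose against WT livers (log2 3.87, edgeR adjusted p = 0.00142). It was also called higher in DKO livers against WT (log2 2.97, edgeR adjusted p = 0.0169) and against Arid1a KO livers (log2 2.41, edgeR adjusted p = 0.0401).

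Of 23 other hepatobiliary transporters tested in tumours against WT livers, 4 rose and 4 fell, beside 36.6% of all genes called. Abcc4, an efflux pump for cyclic nucleotides and bile acids, rose (log2 4.17, SE 0.60, edgeR adjusted p = 0.000300), and so did Slc51b, a subunit of the basolateral organic solute exporter (log2 3.77, SE 0.78, edgeR adjusted p = 0.00305). Slc10a1 fell (log2 -2.67, SE 0.38, edgeR adjusted p = 0.000287). Of 24 regulators 3 rose and 8 fell, among the latter Ghr (log2 -2.2, edgeR adjusted p = 5.815e-05) and the pioneer factor gene Foxa1 (log2 -2.70, edgeR adjusted p = 0.00291).

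**Figure D5:**
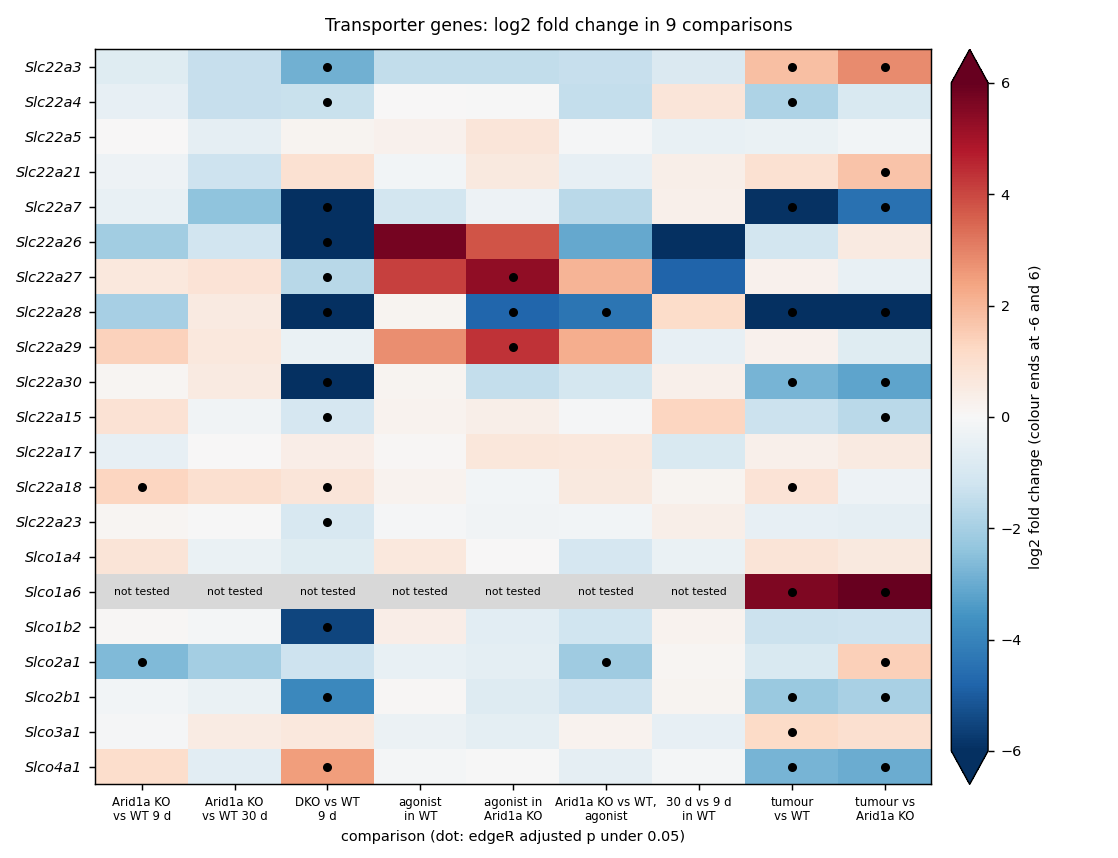
Log2 fold change (colour, ends at -6 and 6) of 21 members in 9 comparisons, with a dot where the edgeR adjusted p was under 0.05; fitted values of genes at or near 0 counts depend on the prior count. The DKO column holds 13 dots and each tumour column 10, while the columns of Arid1a KO against WT hold dots for Slco2a1, Slc22a18 and Slc22a28 alone.

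Called in none of the 12 comparisons were Slc22a5 (20.5 to 58.4 CPM over the 16 libraries), Slco1a4 (29 to 242 CPM) and Slc22a17 (0.859 to 7.94 CPM). In Slco1a4 the replicates of a group often lay as far apart as the groups, at 29 and 130.1 CPM in WT vehicle livers at 30 days and 63.8 and 186 with the agonist.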

How the data were processed

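Polyadenylated RNA of liver and tumours was sequenced from TruSeq libraries, per the labels' protocols. The submitters' processing notes name fastp, STAR 2.7.3 and featureCounts with GRCm38.p6. For annotation release, strand and multiple mapping, settings were not given in the sources used here. Deposited by the authors, count values are whole reads per gene and library. The authors' normalized table was not used.

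The members and gene lists were chosen with earlier results of these data known, and all members are named by the rule, except 1 that is included in the counts and medians but is not reported here. One model covered the 14 livers (edgeR 4.0.16 in R 4.3.3; filterByExpr, TMM, quasi-likelihood F test, 1 coefficient per group, 17831 genes, 7 residual degrees of freedom), and another all 16 libraries for tumour comparisons (18193 genes, 8 degrees of freedom). p-values were adjusted by Benjamini-Hochberg over all genes of each of 12 comparisons, and a gene was called under 0.05. Slco1a6 did not pass the filter in the livers, so 21 members were tested there. With 2 libraries per group, precision is low: the square root of the common dispersion was 29.3%. Statements that values did not overlap describe 2 against 2 libraries unless more are named. How many of all genes showed such non-overlap was not counted, so it adds no support to a member without a call. The procedure was also run on simulated data. Far fewer genes were changed there than were called in DKO against WT livers, so that run gives no error rate for these data. SE is the absolute log2 fold change over the square root of F. Intervals and floors of 3 counts cover counting error only. GENCODE M21 gave positions for 22 of 22 members, and RefSeq the upstream sequences. The alternatives tried were scaling by RLE, no filter on low counts, DESeq2 1.42.0, a replicate block, other control groups and leaving out each library; one with replicate 2 alone of the 30-day vehicle livers was added after the data were seen. Figures were drawn with matplotlib 3.10.9.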

Additional observations from a re-analysis of the deposited data

How the results depend on the processing

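The 2 libraries per group limit every result. Over 53 called values of single members and 484 alternatives, 399 kept the call, 84 lost it and 1 changed sign (Slco3a1 in tumour against WT liver, -0.21 without tumour replicate 2 and 1.83 without tumour replicate 1; the cause was not tested). Leaving out 1 library, with the lone sample assumed to vary like the other groups, accounted for 73 of the lost calls; RLE scaling lost none of 53, DESeq2 2, no low-count filter 2 and the 30-day controls 6 of 20. Leaving out each library gave 0 members called in Arid1a KO against WT at 9 days, 0 to 1 at 30 days, 9 to 12 in DKO against WT, 0 to 1 for the agonist in WT, 1 to 3 for the agonist in Arid1a KO, 0 to 2 for Arid1a KO against WT under the agonist, 0 to 1 for the agonist interaction and 6 to 10 for tumour against WT. Without the low-count filter, the counts were 4 in Arid1a KO against WT at 9 days (against 2), 4 at 30 days (against 0), 2 in the time interaction (0), 4 for the agonist in WT (0), 5 in Arid1a KO (3), 11 for Arid1a KO against WT under the agonist (2), 2 in the agonist interaction (0) and 4 for 30 against 9 days (0). DESeq2 gave 3 in Arid1a KO against WT at 30 days, 2 for the agonist in WT, 5 in Arid1a KO, 7 for Arid1a KO against WT under the agonist, 1 in the agonist interaction and 3 for 30 against 9 days. Without the filter 33901 genes were tested, and 0.445% to 7.28% of all genes were called in these 8 comparisons; DESeq2 called 0.623% to 10.2% in its 6. The cause of these shifts was not tested. With replicate 2 alone of the 30-day vehicle livers, added after the data were seen, 0 members were called in Arid1a KO against WT and in the agonist interaction.

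Groups share replicate numbers, but the correlation of same-numbered deviations ran from -0.106 to 0.356 over 28 pairs of groups and exceeded 0.1 in 12, among them all 6 pairs of 30-day groups (0.168 to 0.356). With 2 numbers per group and no label that ties them, the numbers were not taken to pair the samples. A replicate block left 2 members called in Arid1a KO against WT at 9 days, 14 in DKO against WT, 3 for the agonist in Arid1a KO and 10 for tumour against Arid1a KO, and gave 13 in DKO against Arid1a KO, 3 for Arid1a KO against WT under the agonist, 9 for tumour against WT and 1 in the agonist interaction (against 0).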

Other observations

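Of the matching genes, 17 stayed below the count rule. Slco6b1, Slco6c1 and Slco6d1 had 0 counts in all 16 libraries. The renal organic anion transporters Slc22a6 and Slc22a8 had at most 5 and 1 counts in a library, and the renal organic cation transporter Slc22a2 at most 15. Slco1c1, the thyroxine transporter of the blood-brain barrier, had at least 1 count in all 16 libraries and at most 9. Slco5a1 reached 20 counts in 1 library, the largest value among these genes. The urate exchanger Slc22a12 reached 11 counts, with counts in 6 libraries. Slc22a19, the first gene of the chromosome 19 array, had 1 count over all libraries.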
